A study of Mus musculus with 11 samples.

Results

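The guanylate-binding proteins are a family of interferon-induced GTPases, and 8 of its mouse genes, Gbp2, Gbp3, Gbp4, Gbp5, Gbp6, Gbp7, Gbp8 and Gbp9, were followed across the cell classes of the inflamed cerebellum, brainstem and cervical spinal cord. The members were taken by their symbols, 8 of the 25827 genes counted, and their unique molecular identifiers (UMIs) were summed per library and per marker-defined class of nuclei over all 11 libraries. Experimental autoimmune encephalomyelitis (EAE) is a model of multiple sclerosis in which mice are immunized with a peptide of myelin oligodendrocyte glycoprotein in complete Freund's adjuvant together with pertussis toxin. All mice were adult males of 8 to 12 weeks on the C57BL/6 background and homozygous for the floxed (fl/fl) allele of Il12rb2, the gene of a subunit of the receptor for interleukin-12. The libraries were labelled Il12rb2 fl/fl with EAE at day 10 after immunization (fl EAE, n = 4), NestinCre/+ Il12rb2 fl/fl with EAE at day 10 (NestinCre EAE, n = 4), Il12rb2 fl/fl without immunization (fl naive, replicates 2 and 3) and NestinCre/+ Il12rb2 fl/fl without immunization (NestinCre naive, replicate 2 alone). Cre in the NestinCre mice came from the Nestin promoter, and the fl mice were their litter-matched controls without Cre. The cerebellum, the brainstem of 1 hemisphere and the upper cervical cord of each mouse were pooled, and nuclei were sorted by Hoechst signal and sequenced by droplet.

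Guanylate-binding proteins are transcribed at low levels in resting cells and strongly after interferon-gamma, and more weakly after type I interferon. They assemble on the membranes of vacuoles that hold intracellular parasites and bacteria, and on bacteria in the cytosol, where they help to rupture the membrane and to expose ligands of inflammasomes. In the brain they are known as transcripts of activated microglia and infiltrating macrophages, and astrocytes, oligodendrocytes and neurons can also transcribe them when exposed to interferon-gamma.

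The genes lie in 2 clusters of the mouse genome (GRCm39, GENCODE vM39, coordinates of gene bodies). On chromosome 3, plus strand, are Gbp5 (chr3:142199739-142228105), a member known to promote assembly of the NLRP3 inflammasome, Gbp7 (chr3:142236044-142255910), Gbp3 (chr3:142265731-142278979) and Gbp2 (chr3:142326349-142343779), which is recruited to the vacuole of Toxoplasma gondii. On chromosome 5, minus strand, are Gbp8 (chr5:105162016-105287452), Gbp9 (chr5:105224332-105287452), Gbp4 (chr5:105263633-105287609) and Gbp6 (chr5:105418568-105443751). Gbp8, Gbp9 and Gbp4 overlap on the same strand in this annotation, so that reads in their shared introns and exons cannot be assigned to 1 of them by position alone, and their separate values are uncertain. Gbp6 and Gbp7 each overlap an unnamed gene model on their own strand. Of all 90-base windows in the exons of Gbp6, 58.2% occur elsewhere in the genome without a mismatch, against 14% for Gbp5, 2.98% for Gbp8, 2.81% for Gbp9, 2.55% for Gbp4, 1.01% for Gbp3, 0.691% for Gbp7 and 0% for Gbp2. Over whole gene bodies, whose introns were counted too, such windows made up 34.9% for Gbp8, 31.8% for Gbp6, 23.6% for Gbp9, 22.6% for Gbp5, 1.44% for Gbp4, 0.693% for Gbp7, 0.319% for Gbp3 and 0.306% for Gbp2.

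The stretches around the start sites of the chromosome 3 members are shown because all of them hold a match to the interferon-stimulated response element type, in which a pair of GAAA blocks stands 2 bases apart, and members of both chromosomes moved together in the counts below. The table of RefSeq promoter windows (GRCm38.p6, 250 bases before each start) held 5 windows for Gbp2, Gbp3, Gbp5 and Gbp7, each of which was found once, exactly, in GRCm39. In the lines below each sequence is written 5′ to 3′ on the plus strand of GRCm39, and capitals mark such a pair on either strand (on the minus strand it reads as TTTC blocks) or TTCNNNGAA, the palindromic core of the gamma-activated site.
Gbp5 upstream match, chr3:142202520-142202549: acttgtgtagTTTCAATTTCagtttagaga
Gbp5 downstream match, chr3:142202633-142202662: tggccgttatTTCTCAGAAccaagcacaga
Gbp7 upstream matches, chr3:142235990-142236019: tTTCCAGGAAaagcagaagcTTCTCAGAAa
Gbp7 downstream match, chr3:142236034-142236063: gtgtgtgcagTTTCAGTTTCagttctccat
Gbp3 overlapping matches, chr3:142265753-142265782: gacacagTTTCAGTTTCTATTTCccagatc
Gbp2 match, chr3:142326355-142326384: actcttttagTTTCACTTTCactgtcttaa
The Gbp7 stretch that starts at 142235990 lies wholly before the GENCODE gene start, and the one that starts at 142236034 has 10 bases before the gene and 20 bases in the 5′ untranslated exon. The stretches of Gbp3 and Gbp2 lie wholly in untranslated exon sequence of at least 1 transcript. Of the Gbp5 stretches, the upstream one has 16 bases in untranslated exon and 14 in an intron, and the downstream one is untranslated exon. The GAAA pair was found in 4 of the 5 windows, at least 1 for each of the 4 members, and in 2.98% of all 32851 windows of the table. The TTCNNNGAA core was found in the windows of Gbp5 and Gbp7 and in 7.02% of all windows, and both motifs in 0.332% of all windows. A match says only that these letters are present.

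The 11 libraries held 652893340 UMIs, from 40761007 to 86063464 per library, and 149910 of 158900 kept nuclei fell into 21 classes by markers (5.66% stayed unnamed). No marker of a class was at 0 in that class. Of 185366 distinct barcodes, 4288 (2.31%) occurred in more than 1 library. Sequencing was done in 3 runs. By the labels, run 1 was of fl EAE 1 to 3 and NestinCre EAE 1 to 3, run 2 of fl EAE 4, NestinCre EAE 4 and fl naive 2, and run 3 of fl naive 3 and NestinCre naive 2. The transcript of the floxed gene, Il12rb2, reached 11.3 to 16.5 UMIs per 1000000 (CPM) in fl EAE and 8.18 to 17.2 CPM in NestinCre EAE libraries, and the groups overlapped. Reads of the exons and introns that remain after recombination count toward this level, so that it does not check the genotypes, which are used as labelled. Infiltrating phagocytes numbered 2 to 17 nuclei per fl EAE library and 10 to 112 per NestinCre EAE library, and neutrophils 2 to 7 and 2 to 125 nuclei, with the lowest NestinCre EAE numbers both in replicate 4.

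The library labelled fl EAE 3 stood apart from the other fl EAE libraries in these genes. Its Gbp7 level over all barcodes was 5.09 CPM, against 0.690 to 1.00 CPM in the other 3, and its Gbp2 level was 2.74 CPM, against 0.0627 to 0.422 CPM. Both remained below every NestinCre EAE library (14.3 to 34.3 CPM for Gbp7 and 4.26 to 27.4 CPM for Gbp2). The fitted log2 fold changes below are therefore also given without this library. It was picked by its high levels of these same genes, so leaving it out tends to raise the fold changes by construction. Such values describe how the fits depend on this library and are no support.

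Over whole libraries, without clustering, all 8 members were higher in NestinCre EAE than in fl EAE mice, and for each of them the groups did not overlap, where 5.88% of all genes tested had every NestinCre EAE library above every fl EAE library. Gbp4 ran from 0.0837 to 1.26 CPM in fl EAE and from 5.75 to 15.1 CPM in NestinCre EAE, with a log2 fold change of 4.58 (edgeR, adjusted p = 0.00953). Gbp7, the member with the smallest difference, had a log2 fold change of 3.56 (adjusted p = 0.0135). The edgeR test called 8 of 8 members higher, against 3.57% of all 18193 genes tested, and DESeq2 also called 8. Some members were near 0 in fl EAE, such as Gbp9 with 3, 4, 19 and 10 UMIs in fl EAE 1 to 4. A member that passes the filter on low counts only through the group in which it is high had to differ. The count is therefore an account of the members and no support. Without fl EAE 3 the edgeR test again called 8, with log2 fold changes of 5.55 for Gbp2, 5.07 for Gbp3, 6.21 for Gbp4, 4.43 for Gbp5, 4.60 for Gbp6, 4.60 for Gbp7, 4.61 for Gbp8 and 4.25 for Gbp9. Without NestinCre EAE 1 that of Gbp6 was 3.63 (adjusted p = 0.0189). In such sums more nuclei of a type and more RNA per nucleus cannot be told apart, and the numbers of phagocytes and neutrophils differed between the same groups. Without NestinCre EAE 1, NestinCre EAE 3, fl EAE 1 or fl EAE 2 the adjusted p of Gbp2 was 0.0779, 0.0715, 0.0637 and 0.0708, and without fl EAE 1 that of Gbp6 was 0.0508.

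Of the 18393 family UMIs in the NestinCre EAE libraries, 72.1% lay in named nuclei. Microglia held 25.7% of these and granule cells 25.3%, although microglia were 1.60% and granule cells 72.7% of named nuclei. Mature oligodendrocytes held 20.4% of the family UMIs with 13.7% of nuclei, infiltrating phagocytes 9.65% with 0.495% and neutrophils 6.18% with 0.408%. The named nuclei of the fl EAE group held 994 family UMIs in all, against 13269 in NestinCre EAE.

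**Figure D1:**
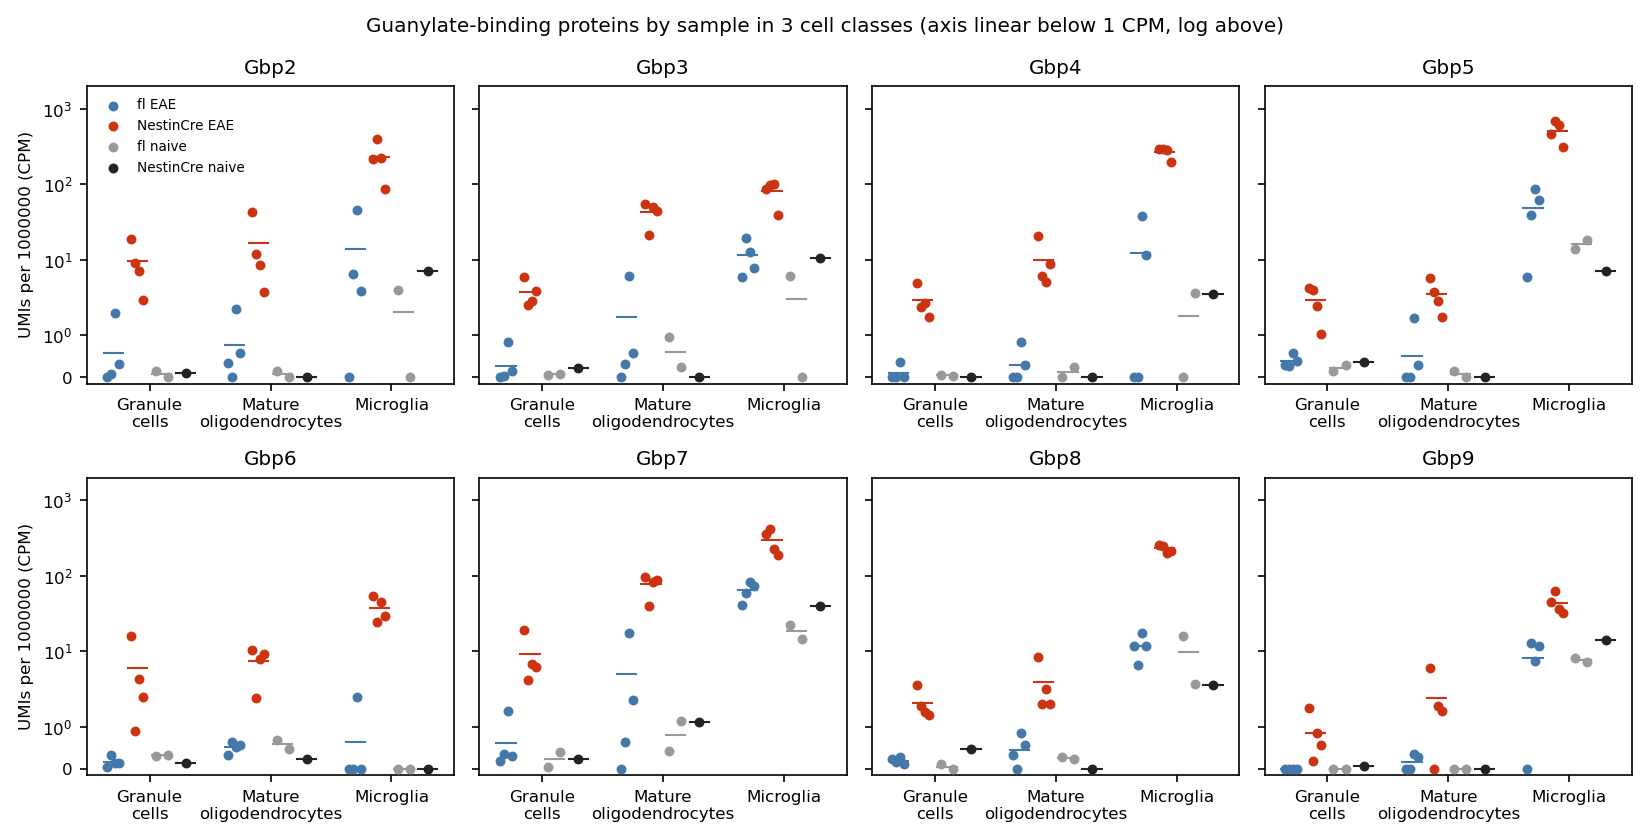
CPM of each member (vertical axis, linear below 1 and logarithmic above) in granule cells, mature oligodendrocytes and microglia, with 1 point per library and bars at the group means. The NestinCre EAE points lie above all fl EAE points in every panel and class except Gbp9 in mature oligodendrocytes, where 4.07% of all genes tested in granule cells, 3.64% in mature oligodendrocytes and 6.74% in microglia lie so, and the highest fl EAE point for Gbp7 in mature oligodendrocytes, 17.3 CPM, is fl EAE 3.

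Microglia, the resident macrophages of the brain, had the family at a high level in NestinCre EAE mice, with summed levels of the 8 members of 1761, 2224, 1724 and 1095 CPM in replicates 1 to 4. The fl EAE sums were 64.8, 143, 291 and 183 CPM. The groups did not overlap for any member, where 6.74% of all genes tested in microglia had every NestinCre EAE library above every fl EAE library. Between 84 and 188 microglial nuclei per library stood behind the fl EAE values and between 133 and 351 behind the NestinCre EAE values.

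Gbp5, the inflammasome-linked member, was at 5.89, 38.9, 85.4 and 62.2 CPM in the microglia of fl EAE 1 to 4. In NestinCre EAE 1 to 4 it was at 457, 684, 604 and 308 CPM. The lowest NestinCre EAE library thus exceeded the highest fl EAE library, and the difference was 9.0-fold (log2 fold change 3.17 ± 0.29 SE, adjusted p = 1.73e-07). Gbp2 was at 0, 6.48, 45.2 and 3.89 CPM in fl EAE and at 217, 400, 224 and 87.3 CPM in NestinCre EAE. Its log2 fold change was 3.55 ± 0.40 (adjusted p = 1.96e-06), and it rose to 5.65 without fl EAE 3, which held the highest fl EAE value. Gbp3 was at 5.89 to 19.5 CPM in fl EAE and 39.7 to 99.3 CPM in NestinCre EAE, with a log2 fold change of 2.81 ± 0.36 (adjusted p = 1.5e-05). Gbp7 was at 41.2, 58.4, 82.9 and 73.9 CPM in fl EAE and at 356, 414, 228 and 190 CPM in NestinCre EAE. Its difference of 4.27-fold (log2 fold change 2.09 ± 0.25, adjusted p = 4.76e-06) was the smallest among the microglial members tested.

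Of the chromosome 5 members in microglia, Gbp8 had the clearest separation. Its values were 11.8, 6.48, 17.6 and 11.7 CPM in fl EAE and 254, 249, 203 and 213 CPM in NestinCre EAE, a 17.3-fold difference (log2 fold change 4.11 ± 0.28, adjusted p = 2.37e-09). Gbp4 was at 0, 0, 37.7 and 11.7 CPM in fl EAE and at 293, 291, 285 and 195 CPM in NestinCre EAE (log2 fold change 3.91 ± 0.36, adjusted p = 1.46e-07, and 5.50 without fl EAE 3). Since Gbp4, Gbp8 and Gbp9 overlap, part of their counts may be shared. Gbp9 was at 0 to 13 CPM in fl EAE and 31.7 to 63.1 CPM in NestinCre EAE (log2 fold change 2.34 ± 0.49, adjusted p = 0.00275). Gbp6 did not pass the filter on low counts in this class, with 1 UMI over the 4 fl EAE libraries and 84 over the NestinCre EAE libraries, a ratio of 37.4 with a counting interval of 6.52 to 1490, and with no filter its adjusted p was 6.72e-09.

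In microglia 7 of the 8 members entered the test and 7 were called higher by edgeR, where 6.90% of all 6664 genes tested were called. A member that passes the filter on low counts only through the group in which it is high had to differ, so the count over members that passed is an account of them and no support. No microglial call was lost under any alternative that gave a value, with adjusted p-values of at most 0.0326 over those alternatives. Without fl EAE 3 the log2 fold changes of Gbp3, Gbp5, Gbp7, Gbp8 and Gbp9 were 2.71, 3.53, 2.16, 4.40 and 2.17. In microglia the 8 phagocyte markers were higher on average in NestinCre EAE for 8 of 8 markers, 4 of them without overlap, and their summed level was 6.48 to 52.7 CPM in fl EAE and 88.4 to 354 CPM in NestinCre EAE. Their part in the result was not tested. The neutrophil markers had a higher mean for 6 of 7, at 439 to 653 CPM in fl EAE against 463 to 824 CPM in NestinCre EAE, which overlapped. A higher mean was also seen for 2 of 7 markers of border-associated macrophages, 1 of 6 of B cells and 2 of 9 of T or NK cells. Of 9 T or NK cell markers, 6 were at 0 in the microglia of all EAE libraries, among them Cd3e and Cd4. Zeros of rare markers say little in a class of few nuclei.

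Granule cells, the excitatory neurons that fill the cerebellar cortex and the largest class here, had the family at a low level. The summed levels were 0.778, 1.23, 5.76 and 1.40 CPM in fl EAE 1 to 4 and 74.7, 25.2, 28.7 and 20.3 CPM in the NestinCre EAE libraries, so that NestinCre EAE 1 was the highest and the groups did not overlap. Of all genes tested in granule cells, 4.07% had every NestinCre EAE library above every fl EAE library. Between 8099 and 12045 nuclei per library stood behind these values.

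Gbp2 in granule cells was at 0, 0.0795, 1.96 and 0.310 CPM in fl EAE 1 to 4 and at 19.0, 9.16, 7.17 and 2.92 CPM in NestinCre EAE 1 to 4. The log2 fold change was 3.94 ± 0.76 (15.3-fold, adjusted p = 0.0324), and 5.46 without fl EAE 3 (adjusted p = 0.00948). This call was lost by DESeq2 (adjusted p = 0.113) and without NestinCre EAE 1, NestinCre EAE 2, NestinCre EAE 3, fl EAE 1 or fl EAE 2 (adjusted p of 0.0831, 0.0667, 0.0654, 0.0796 and 0.0939). Gbp7 was at 0.194, 0.358, 1.61 and 0.310 CPM in fl EAE and at 19.4, 4.21, 6.83 and 6.19 CPM in NestinCre EAE. Every NestinCre EAE library again exceeded every fl EAE library, with a log2 fold change of 3.93 ± 0.64 (15.3-fold, adjusted p = 0.016), which missed the threshold without fl EAE 1 (0.0676) or fl EAE 2 (0.0695). It was 4.81 without fl EAE 3 and 3.26 without NestinCre EAE 1 (adjusted p of 0.00821 and 0.03).

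Gbp3 in granule cells was at 0, 0.0398, 0.848 and 0.155 CPM in fl EAE and 5.90, 2.52, 2.87 and 3.88 CPM in NestinCre EAE. Its log2 fold change of 3.90 ± 0.68 (adjusted p = 0.0221) was 5.49 without fl EAE 3, and it missed the threshold without NestinCre EAE 1 (0.055), NestinCre EAE 3 (0.052), fl EAE 1 (0.0676) or fl EAE 2 (0.0766). Gbp5 was at 0.278 to 0.580 CPM in fl EAE and 1.04 to 4.28 CPM in NestinCre EAE, the smallest of the granule cell differences (log2 fold change 2.75 ± 0.40, 6.71-fold, adjusted p = 0.0116, and 0.0579 without fl EAE 1). Without fl EAE 3 it was 2.85.

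Gbp6 was at 0.0486, 0.318, 0.134 and 0.129 CPM in the granule cells of fl EAE 1 to 4 and at 16, 0.888, 4.30 and 2.50 CPM in NestinCre EAE 1 to 4, so that NestinCre EAE 2 lay just above the fl EAE range and NestinCre EAE 1 far above the others. The log2 fold change was 5.07 ± 0.95 (33.5-fold, adjusted p = 0.0297). It missed the threshold without NestinCre EAE 3 (0.0587), fl EAE 1 (0.117), fl EAE 2 (0.0967) or fl EAE 3 (0.0729, log2 fold change 4.88), and it was 3.91 without NestinCre EAE 1 (0.0288). Gbp4 was at 0, 0, 0.357 and 0 CPM in fl EAE and 4.91, 2.38, 2.64 and 1.73 CPM in NestinCre EAE (log2 fold change 5.12 ± 0.72, adjusted p = 0.00971, and 0.0514 without fl EAE 1). Without fl EAE 3, the sole fl EAE library with a UMI, the fitted log2 fold change of Gbp4 was 9.02, a value that then rests on the prior count.

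Gbp8 had the narrowest error in granule cells, with 0.103 to 0.268 CPM in fl EAE and 3.53, 1.87, 1.55 and 1.42 CPM in NestinCre EAE (log2 fold change 3.45 ± 0.38, 11.0-fold, adjusted p = 0.0052). Its call held without each library in turn, with a log2 fold change of 3.57 without fl EAE 3. Gbp9 was listed at 0 in all 4 fl EAE libraries and at 1.75, 0.187, 0.861 and 0.577 CPM in NestinCre EAE, 76 UMIs in all, which is at least 30.4-fold higher against 3 counts over the fl EAE group. Gbp9 did not pass the filter, and with no filter its adjusted p was 0.0165.

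The edgeR test called 7 of the 7 granule cell members that passed the filter higher, where 1.74% of 15726 genes were called, and DESeq2 called 6. As in microglia, this count is an account of the members that passed and no support. In granule cells 8 of 8 phagocyte markers had a higher mean in NestinCre EAE, 5 without overlap and none at 0, with summed levels of 2.70 to 15 CPM in fl EAE and 18.4 to 159 CPM in NestinCre EAE. The neutrophil markers were higher for 6 of 7, at 6.08 to 8.04 CPM against 13.3 to 78.9 CPM. Of named nuclei outside the immune classes, 56.2% held a UMI of at least 1 of 50 immune markers. Some of these markers were well above 0 in granule cells of both groups. The microglia markers summed to 129 to 157 CPM in fl EAE and 142 to 170 CPM in NestinCre EAE. Of the 50, 36 were under 1 CPM in granule cells of the naive libraries, and 10.2% of the nuclei held a UMI of those 36. With the nuclei that held a UMI of any of the 50 left out, Gbp2, Gbp3, Gbp4, Gbp6, Gbp7 and Gbp8 still passed in granule cells. Their log2 fold changes were 4.49, 5.0, 5.26, 5.43, 3.18 and 3.67, with edgeR adjusted p-values from 0.00294 to 0.0335. Gbp5 was under the filter there and gave no value. NestinCre EAE 4 held 10 phagocytes and 2 neutrophils, within the fl EAE ranges, while its granule cell sum of phagocyte markers, 18.4 CPM, was above the 15 CPM of fl EAE 3. In its granule cells Gbp7 was at 6.19 CPM and Gbp2 at 2.92 CPM, against 1.61 and 1.96 CPM in fl EAE 3. The part of the immune markers in these differences was not tested.

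Mature oligodendrocytes, the myelin-forming cells, differed between the genotypes in Gbp7, Gbp3, Gbp2 and Gbp4. Gbp7 was at 0, 0.648, 17.3 and 2.27 CPM in fl EAE 1 to 4 and at 97.6, 39.6, 81.6 and 89.1 CPM in NestinCre EAE 1 to 4. The lowest NestinCre EAE library was above fl EAE 3, which was far above the other fl EAE libraries. The log2 fold change was 3.59 ± 0.60 (12.0-fold, adjusted p = 0.00792), 6.20 without fl EAE 3, and DESeq2 gave an adjusted p of 0.144.

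Gbp3 in mature oligodendrocytes was at 0, 0.324, 6.11 and 0.568 CPM in fl EAE and at 54.1, 21.3, 49.6 and 44.7 CPM in NestinCre EAE (log2 fold change 4.18 ± 0.55, 18.1-fold, adjusted p = 0.00292, and 6.94 without fl EAE 3). Gbp2 was at 0.328, 0, 2.21 and 0.568 CPM in fl EAE and at 42.4, 11.8, 8.48 and 3.74 CPM in NestinCre EAE, where NestinCre EAE 1 was far above NestinCre EAE 4. Its log2 fold change was 4.06 ± 0.72 (adjusted p = 0.0117, 0.0658 without fl EAE 1, and a log2 fold change of 5.39 without fl EAE 3). Without NestinCre EAE 1 it was 3.08 (adjusted p = 0.0191). Gbp4 was at 0 to 0.849 CPM in fl EAE and 20.4, 6.09, 5.02 and 8.69 CPM in NestinCre EAE (log2 fold change 4.64 ± 0.71, adjusted p = 0.00508, and 6.16 without fl EAE 3), and 3.94 without NestinCre EAE 1 (0.00767).

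The other 4 members did not pass the filter on low counts in mature oligodendrocytes. Gbp6 was at 0.328 to 0.648 CPM in fl EAE and at 10.4, 2.37, 7.85 and 9.09 CPM in NestinCre EAE, with no overlap, where 3.64% of all genes tested in this class had every NestinCre EAE library above every fl EAE library. Gbp5 was at 0, 0, 1.70 and 0.284 CPM against 5.68, 3.72, 2.83 and 1.74 CPM, and Gbp8 at 0 to 0.849 CPM against 2.01 to 8.36 CPM. Gbp9 had 3 UMIs in fl EAE and 36 in NestinCre EAE, a ratio of 11.2 with a counting interval of 3.55 to 57.0, and was at 0 in NestinCre EAE 2. With no filter, Gbp5, Gbp6, Gbp8 and Gbp9 passed (adjusted p of 0.0188, 1.71e-06, 0.00334 and 0.0261), and with doublets kept Gbp5 and Gbp8 did (0.0249 and 0.0115).

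The test called 4 of the 4 members that passed in mature oligodendrocytes higher, where 1.67% of 12036 genes were called. As in microglia, this count is an account of the members that passed and no support. Here too 8 of 8 phagocyte markers had a higher mean in NestinCre EAE, 3 without overlap, at summed levels of 3.89 to 16.5 CPM against 19.1 to 166 CPM. The neutrophil markers were higher for 7 of 7, at 4.26 to 8.21 CPM against 11.2 to 82.5 CPM. With the nuclei that held immune UMIs left out, Gbp3 and Gbp7 had log2 fold changes of 4.33 and 3.54 in mature oligodendrocytes, while Gbp2 and Gbp4 were under the filter there and gave no value.

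**Figure D2:**
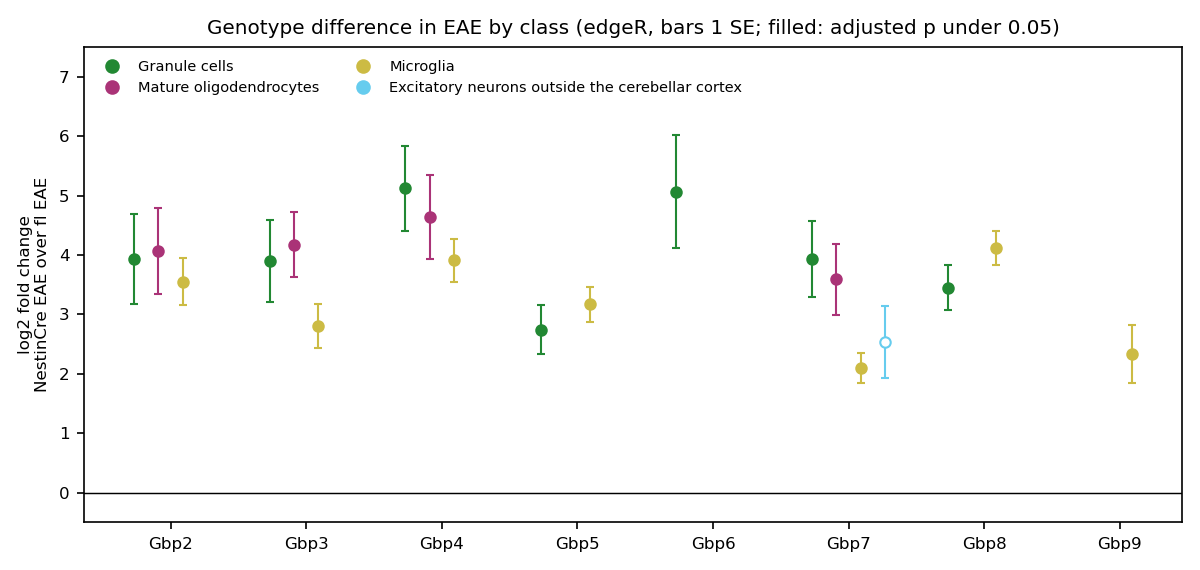
Log2 fold change of NestinCre EAE over fl EAE (vertical axis) for the member and class pairs that passed the filter on low counts, with bars of 1 SE, filled where the edgeR adjusted p was under 0.05. All 19 pairs lie above 0, from 2.09 for Gbp7 in microglia to 5.12 for Gbp4 in granule cells, and the open point is Gbp7 in excitatory neurons outside the cerebellar cortex.

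In the remaining classes the counts were too low for most members to pass the filter. Excitatory neurons outside the cerebellar cortex had Gbp7 at 0, 0.421, 2.95 and 0 CPM in fl EAE and 6.36, 3.22, 7.40 and 6.62 CPM in NestinCre EAE. The groups did not overlap, where 1.32% of genes tested in this class had every NestinCre EAE library above every fl EAE library, but the log2 fold change of 2.54 ± 0.60 did not pass (adjusted p = 0.226, where 0.115% of genes were called). Without fl EAE 3, the highest fl EAE library, it was 5.41 with an adjusted p of 0.00123, which is no support because that library was picked by these levels. With no filter on low counts Gbp7 passed at a log2 fold change of 2.54 (adjusted p = 0.000839), and so did Gbp2 and Gbp3 (0.0038 and 0.0274), and with doublets kept Gbp3 passed (0.0144). Without the filter the SE of Gbp7 was 0.44 in place of 0.60 at nearly the same fold change, so that call depends on the filter. In these neurons 8 of 8 phagocyte markers had a higher mean in NestinCre EAE, 1 without overlap.

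Astrocytes, with 35 to 147 nuclei per EAE library, had no member past the filter, where 0.501% of genes were called. Gbp3 was at 0, 3.69, 10.6 and 0 CPM in fl EAE and at 37.5, 49.6, 39.7 and 51.7 CPM in NestinCre EAE, and Gbp7 at 9.26, 11.1, 4.22 and 4.62 CPM against 15, 62.0, 75.5 and 51.7 CPM. Gbp2 had 3 UMIs in fl EAE and 26 in NestinCre EAE, a ratio of 16.3 with a counting interval of 5.01 to 84.3. Gbp5 was listed at 0 in all fl EAE libraries and at 10.3 to 15.9 CPM in NestinCre EAE, at least 6.28-fold higher against 3 counts over the group. Gbp6 had 3 UMIs against 18, a ratio of 11.3 with an interval of 3.30 to 59.9. With no filter, Gbp2, Gbp3, Gbp5, Gbp6 and Gbp7 passed in astrocytes (adjusted p of 3.57e-05, 1.15e-05, 0.0438, 0.0132 and 3.57e-06), and with doublets kept Gbp3 did (0.000605).

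In oligodendrocyte progenitor cells, the precursors of the myelinating cells, Gbp3 was at 0, 15.4, 11.7 and 0 CPM in fl EAE and at 38.3, 59.7, 71.8 and 32.5 CPM in NestinCre EAE. Gbp7 was at 0 to 8.76 CPM against 39.2 to 68.2 CPM (0.77% of genes called). In molecular layer interneurons Gbp2 was at 0, 0.396, 0.736 and 0.248 CPM in fl EAE and 11.8, 6.28, 5.10 and 1.84 CPM in NestinCre EAE (0.184% of genes called). These members were under the filter in both classes. With no filter, Gbp3 and Gbp7 passed in oligodendrocyte progenitor cells (adjusted p of 0.000227 and 3.22e-07) and Gbp2, Gbp3, Gbp4, Gbp5 and Gbp7 in molecular layer interneurons (1.81e-08, 0.00307, 0.0177, 0.0294 and 0.00167). With doublets kept, Gbp3 and Gbp7 also passed in the progenitors (0.000136 and 4.17e-06), and in run 1 alone Gbp2 passed in the interneurons (0.00329). In Bergmann glia NestinCre EAE 1 to 4 held 81, 1, 11 and 2 family UMIs, with Gbp2 at 161, 0, 8.32 and 0 CPM in NestinCre EAE 1 to 4, while Gbp5 was at 0 in all of them. The family sums in Bergmann glia were 0, 12.1, 26.1 and 0 CPM in fl EAE 1 to 4. In NestinCre EAE 1 to 4 they were 767, 10.4, 91.5 and 19.4 CPM, so that the groups overlapped. The main fit called 0 of 2633 genes in this class. With no filter Gbp2, Gbp3, Gbp4 and Gbp7 passed there (adjusted p of 0.0031, 0.0134, 0.00136 and 1.18e-05), while most family UMIs of the class lay in NestinCre EAE 1. Those p-values do not show a difference shared by the mice.

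Over the 11 classes tested, 19 member and class pairs passed the filter and 18 were called, all higher in NestinCre EAE, where 1.23% of all 83346 gene and class pairs were called. DESeq2 called 16 of them. A pair that passes the filter only through its NestinCre EAE libraries had to differ, so these counts are an account of the pairs and no support.

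Infiltrating phagocytes and neutrophils had too few nuclei in fl EAE to be tested. In the phagocytes of NestinCre EAE 1 to 4 Gbp5 was at 601, 919, 822 and 574 CPM and Gbp2 at 466, 749, 469 and 143 CPM. In fl EAE 3, which held 12 phagocyte nuclei, they were at 1103 and 490 CPM, above and inside those ranges, and in fl EAE 4, with 17 nuclei, at 119 and 71.4 CPM. In neutrophils Gbp6 was at 17.5, 0, 21.9 and 0 CPM in NestinCre EAE 1 to 4, from 3 UMIs in all, and Gbp2 was at 856, 1575 and 1137 CPM in NestinCre EAE 1 to 3.

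The order of the classes was set by the mean CPM over the 4 NestinCre EAE libraries, for 13 classes with at least 10 nuclei in each. Neutrophils, with 2 nuclei in NestinCre EAE 4 and 38 to 125 in the other 3, did not enter this order. Pooled over the NestinCre EAE libraries they were at 1029 CPM for Gbp2, 268 CPM for Gbp3, 1451 CPM for Gbp5 and 978 CPM for Gbp7, above the pooled phagocytes at 507, 156, 726 and 311 CPM. Other classes with few nuclei in a library were left out too. B cells, with 27, 28, 55 and 8 nuclei in NestinCre EAE 1 to 4, had family sums of 1011, 1497, 779 and 396 CPM. In NestinCre EAE 1 to 4 the family sums were 1549, 2103, 2488 and 1333 CPM in border-associated macrophages. They were 3256, 2210, 1458 and 915 CPM in leptomeningeal cells or fibroblasts. Mural cells had 4 and 3 nuclei in NestinCre EAE 2 and 3, at 3083 and 5146 CPM. Among the 13 classes infiltrating phagocytes were highest for 7 members and microglia for Gbp7, at 297 CPM against 287 CPM in phagocytes, which overlapped. Gbp3 was at 149 ± 38.2 CPM in phagocytes and 80.6 ± 28.0 CPM in microglia (SD, n = 4), without overlap. For Gbp5, phagocytes (729 ± 168 CPM) and microglia (513 ± 166 CPM) overlapped, and microglia did not overlap with the next of the 13 classes, T or NK cells (53.3 ± 42.6 CPM). Classes outside the 13 lay between them. Pooled over NestinCre EAE with doublets kept, Gbp5 was at 365 CPM in microglia and 340 CPM in border-associated macrophages. It was at 299 CPM in B cells and 45.5 CPM in T or NK cells. For Gbp8 the order within the 13 classes was phagocytes at 378 CPM, microglia at 230 CPM and T or NK cells at 106 CPM, of which the first pair overlapped and the second did not. Most other neighbours in the 8 orders overlapped. Mature oligodendrocytes stood at place 4 for Gbp7 (77.0 ± 25.8 CPM) and at place 5 for Gbp3 (42.4 ± 14.6 CPM), next to astrocytes (44.6 ± 7.07 CPM) and oligodendrocyte progenitor cells (50.6 ± 18.4 CPM), with which they overlapped for Gbp3. They stood at places 6 or 7 for the other 6 members, and granule cells at places 7 to 9.

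The make-up of the family differed between the classes of the NestinCre EAE libraries. Gbp7 gave 49.4% of the family UMIs in mature oligodendrocytes (95% exact binomial interval 47.5 to 51.3%, from 2702 UMIs), with 39.8 to 55.5% in single libraries. In microglia it gave 17.4%, with 13.2 to 20.2% in single libraries, so that the ranges did not overlap. Gbp3 gave 26.5% in mature oligodendrocytes (22.1 to 30.9%) and 4.64% in microglia. Gbp5 was the reverse, with 1.85% of the family UMIs in mature oligodendrocytes and 29.6% in microglia, where single libraries ran from 26 to 35%.

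Granule cells had another make-up, in which Gbp2 gave 25.4%, Gbp7 24.9% and Gbp6 16.1% of 3363 family UMIs. The Gbp6 share varied between libraries, at 21.4, 3.52, 15 and 12.3% in NestinCre EAE 1 to 4. Gbp6 gave 2.73% of the family UMIs in infiltrating phagocytes and 0.366% in neutrophils. Oligodendrocyte progenitor cells (128 UMIs) were led by Gbp7 (39.1%) and Gbp3 (33.6%), and astrocytes (138 UMIs) by Gbp7 (29.7%) and Gbp3 (23.9%), with 13% from Gbp6. These shares compare the same member between classes, since levels of different members depend on their lengths and mapping. The intervals cover counting error only.

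**Figure D3:**
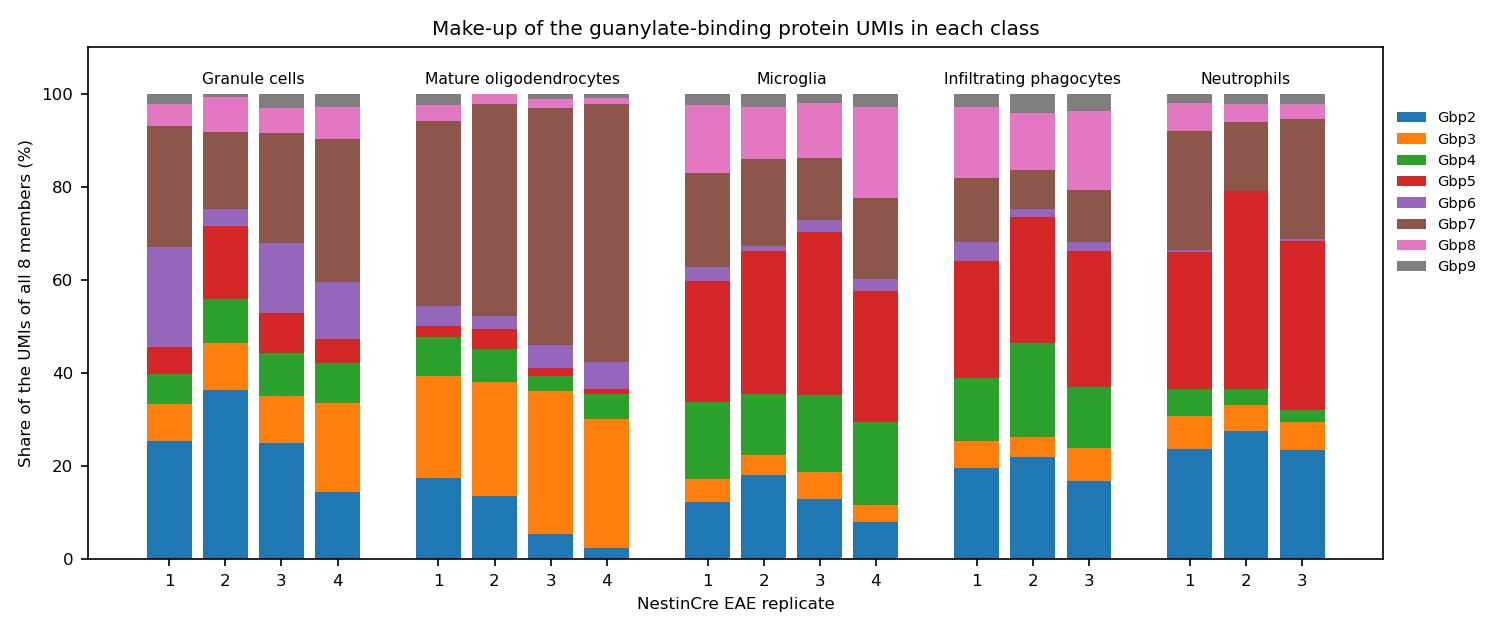
Share of each member in the UMIs of all 8 (vertical axis, percent) for each NestinCre EAE library and class, without the phagocytes (10 nuclei) and neutrophils (2 nuclei) of replicate 4. Gbp7 and Gbp3 fill most of each mature oligodendrocyte bar, Gbp5 is the largest part of the microglial bars pooled, and Gbp6 takes 21.4, 3.52, 15 and 12.3% of the granule cell bars.

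Each member's level was set beside its level in infiltrating phagocytes, over the pooled NestinCre EAE libraries, and beside 8 phagocyte markers measured the same way. In granule cells the markers stood at 0.414% (Ccr2) to 3.21% (Lyz2) of their phagocyte level. Gbp6 stood at 8.37%, above that range, and 384 of its 543 granule cell UMIs came from NestinCre EAE 1. Without that library it stood at 4.52%, with the markers at 0.282 to 2.12%. In NestinCre EAE 1 to 4 alone it stood at 16.8, 1.48, 8.00 and 6.97%, with the highest marker at 6.49, 2.16, 4.63 and 2.79%, so that in NestinCre EAE 2 it was within the marker range. The phagocytes behind these values held 21, 6, 7 and 1 UMIs of Gbp6. Gbp2 (1.89%), Gbp3 (2.49%), Gbp4 (0.723%), Gbp7 (3.03%), Gbp8 (0.531%) and Gbp9 (0.931%) were within the marker range, and Gbp5 (0.400%) was just under it.

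In mature oligodendrocytes the markers stood at 0.347 to 2.60% of their phagocyte level. Gbp3 stood at 27.6%, Gbp7 at 25.9% and Gbp6 at 10.8%, all above that range, while the other 5 members stood at 0.415 to 2.58%, within it. The range leaves out neutrophil markers. By the same ratio S100a8, S100a9 and Mmp9 stood at 53.5, 43.9 and 7.70% here and at 61.2, 59.0 and 23.9% in granule cells. Csf3r and Slfn4 stood at 0.785 and 0.371% here and at 0.796 and 0.713% in granule cells. Pooled over the NestinCre EAE libraries, Gbp6 was at 15.4 CPM in neutrophils, from 3 UMIs, 6.11 CPM in granule cells and 7.89 CPM in mature oligodendrocytes. The part of free RNA in these levels was not tested.

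**Figure D4:**
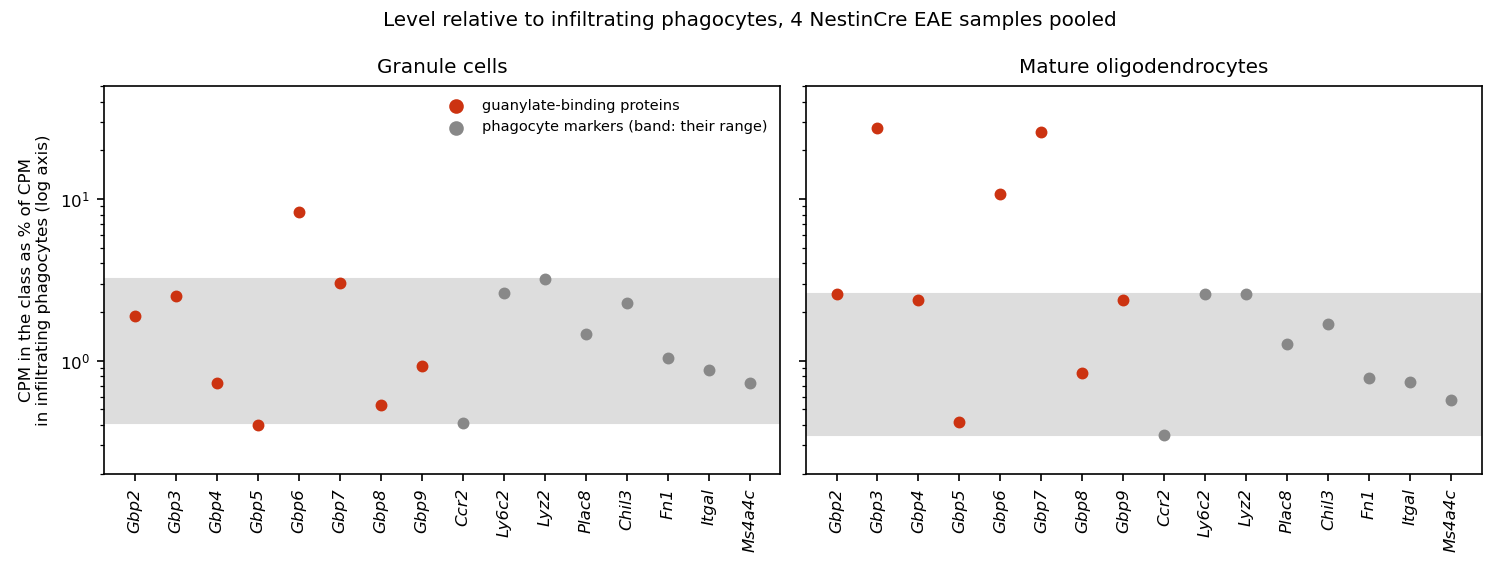
Pooled CPM in granule cells and in mature oligodendrocytes as a percentage of the CPM in infiltrating phagocytes (logarithmic axis), for the 8 members and 8 phagocyte markers of the NestinCre EAE libraries, with a band over the range of the markers. Gbp6 lies above the band in both classes (in granule cells at 8.37%, with 384 of 543 UMIs from NestinCre EAE 1, and within the marker range in NestinCre EAE 2 alone), and Gbp3 and Gbp7 lie above it in mature oligodendrocytes alone. The band leaves out neutrophil markers, of which S100a8 and S100a9 stood above every member in both classes.

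**Figure D5:**
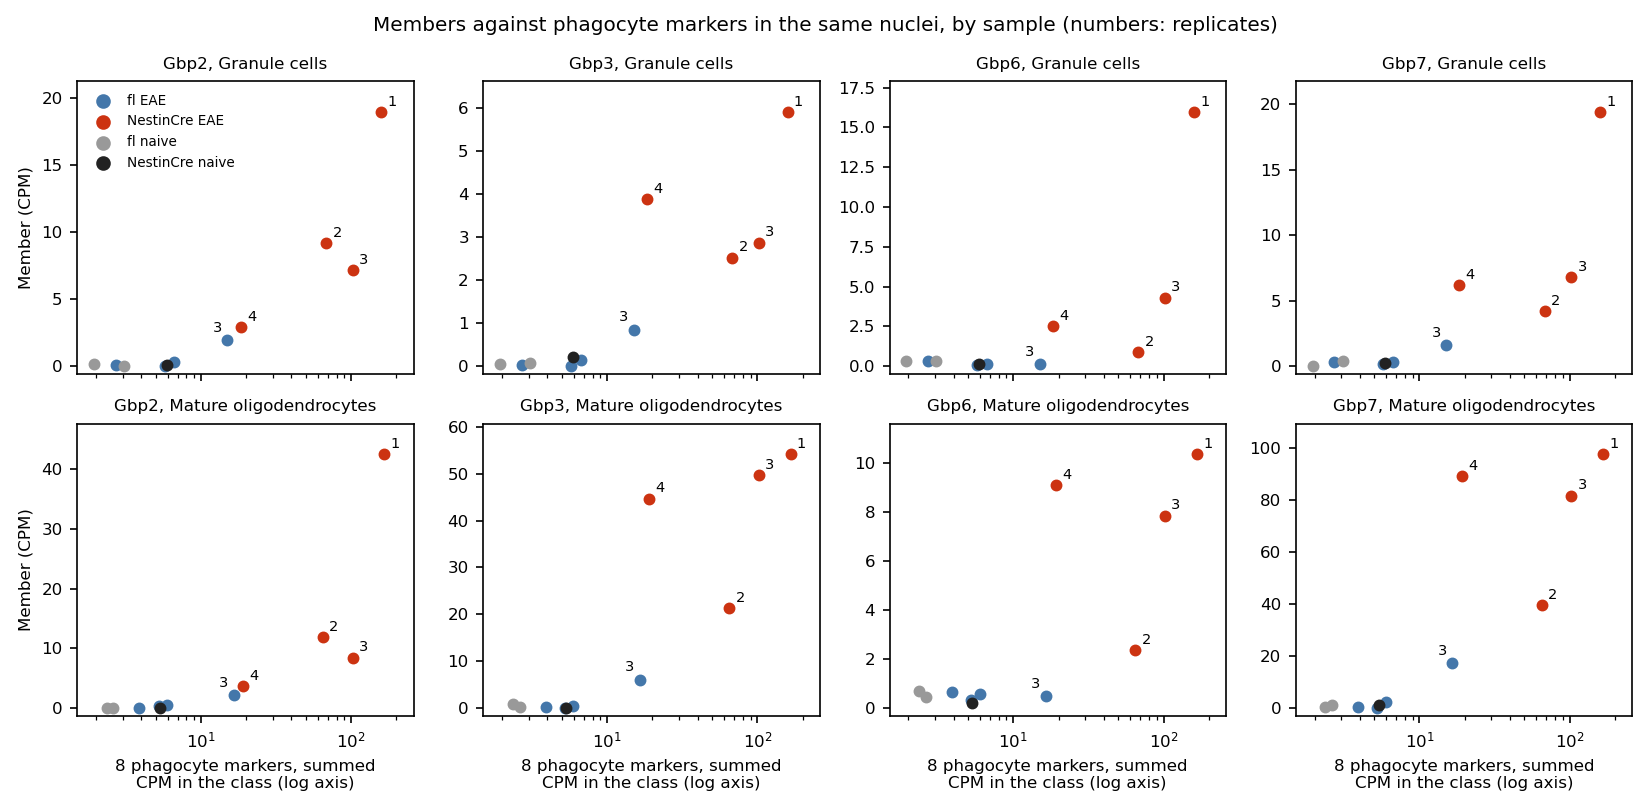
CPM of Gbp2, Gbp3, Gbp6 and Gbp7 (vertical axes) against the summed CPM of 8 phagocyte markers in the same nuclei (logarithmic axes), for granule cells and mature oligodendrocytes, with 1 point per library. NestinCre EAE 4 has marker sums of 18.4 and 19.1 CPM, close to the 15 and 16.5 CPM of fl EAE 3, and its Gbp3 and Gbp7 levels lie with the other NestinCre EAE libraries in mature oligodendrocytes, while its Gbp2 level lies near that of fl EAE 3.

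The share of nuclei with a UMI of any member was compared with every nucleus drawn down to 1000 UMIs (thinned). In microglia it was 13.4% in fl EAE and 62.5% in NestinCre EAE (24.5% and 78.7% without thinning), and in single libraries 5.62 to 17.5% against 52.8 to 79.0%. In mature oligodendrocytes it was 1.01% and 11.3% (2.02% and 19.1% without thinning), and in granule cells 0.239% and 3.65% (0.533% and 7.34%). Single libraries of granule cells ran from 0.0651 to 0.614% in fl EAE and from 2.01 to 7.52% in NestinCre EAE, without overlap.

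Inhibitory neurons outside the cerebellar cortex were read as another class with few family UMIs. Of their 132 thinned nuclei in NestinCre EAE, 1 had a UMI, or 0.758% with an exact binomial interval of 0.0192 to 4.15%. Of the 123 such nuclei in fl EAE, 0 had a UMI, which allows a share of up to 2.44% if pooled nuclei are taken as independent. The thinned granule cell share of 3.65% lies inside the first interval, which rests on 1 nucleus, at median depths of 2061 UMIs for granule cells and 9591.5 for the inhibitory neurons. With all UMIs counted, the summed level of the 8 members was 4.62, 3.50, 0 and 7.94 CPM in the inhibitory neurons of NestinCre EAE 1 to 4. The granule cells were at 74.7, 25.2, 28.7 and 20.3 CPM. CPM divides by depth, which was greater in the inhibitory neurons. These held 1, 1, 0 and 5 family UMIs in 19, 29, 23 and 61 nuclei. The granule cells held 1797, 539, 500 and 527 in 8624, 10526, 8099 and 11825 nuclei. Per nucleus the inhibitory neurons were thus lower in NestinCre EAE 1 to 3 and higher in NestinCre EAE 4. Whether granule cells exceed this class was not tested. The thinned shares of mature oligodendrocytes and microglia lie above the interval of the inhibitory neurons. It covers counting error over nuclei pooled from 4 libraries and not the spread between mice, so this is a description and no test. Clusters whose best match was these inhibitory neurons but which stayed unnamed, the largest of 1755 nuclei before doublets were removed, are not in these counts.

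Some nuclei held UMIs of several members at once. Of nuclei with any member, 69.3% of 678 microglial and 79.5% of 239 phagocyte nuclei had at least 2 members in NestinCre EAE. In mature oligodendrocytes the share was 25.2% of 1408 nuclei, in astrocytes 29% of 69 and in granule cells 7.32% of 2868, of which 2494 held a single family UMI. Depth and level differ between the classes, and both move this share.

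Within the classes the family was uneven between clusters, which were built without these genes. In mature oligodendrocytes 1 cluster, led by Prr5l, Mobp and St18 like the rest of the class, held 841 nuclei of NestinCre EAE (11.4% of the class, from all 4 libraries with 200, 97, 171 and 373) and 54.3% of the family UMIs, at 689 CPM. The other 3 clusters were at 69.0 to 103 CPM. Of the 79 fl EAE nuclei in the same cluster, 76 came from fl EAE 3. In granule cells a cluster with Rnf213 and Serping1 among its leading genes had 184 NestinCre EAE nuclei, 129 of them from NestinCre EAE 1, at 266 CPM and with 4.40% of the family UMIs. In microglia a cluster with Iigp1, Cd274 and Cxcl10 among its leading genes had 61 NestinCre EAE nuclei at 3413 CPM and 18.7% of the family UMIs. Numbers of nuclei in these clusters were not tested between groups.

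The genotype difference of each member in a class was tested against its difference in granule cells in 1 model. Of 71 member and class pairs, 2 passed by edgeR, where 0.440% of all gene and class pairs were called, 4 had an unadjusted p under 0.05, and DESeq2 called 0. Both were in microglia, where 3.26% of 15452 genes were called. The log2 fold change of Gbp7 was smaller in microglia than in granule cells by 1.57 (a difference of -1.57 ± 0.34, adjusted p = 0.000277) and that of Gbp9 differed by -3.96 ± 1.15 (adjusted p = 0.0209), where Gbp9 was at 0 in the granule cells of all fl EAE libraries, so that this fitted value depends on the prior count. The Gbp7 call was lost without NestinCre EAE 1 (-1.10, adjusted p = 0.139), NestinCre EAE 4 (-1.14, 0.129) or fl EAE 4 (-1.07, 0.143), and with nuclei that held immune UMIs left out (-0.84, 0.346). Without fl EAE 3 the differences were -2.42 for Gbp7 (adjusted p = 4.59e-06) and -3.97 for Gbp9 (0.102). For mature oligodendrocytes no member passed, so a difference between their genotype effect and that of granule cells was not shown.

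The naive libraries had the family at low levels in every class tested. In granule cells Gbp7 was at 0.0525 and 0.399 CPM in fl naive and 0.222 CPM in NestinCre naive, and Gbp8 at 0.105, 0 and 0.480 CPM. In microglia Gbp7 was at 22.1 and 14.5 CPM in fl naive and 39.2 CPM in NestinCre naive, and Gbp5 at 14, 18.2 and 7.14 CPM. In mature oligodendrocytes Gbp7 was at 0.415, 1.19 and 1.16 CPM and Gbp3 at 0.967, 0.237 and 0 CPM.

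Between fl EAE and fl naive mice, 0 of 42 member and class pairs passed by edgeR, with 0.139% of all pairs called. In simulated microglial counts this comparison found 2.99% of 2-fold and 44.8% of 4-fold changes, so the lack of calls does not show that the members were unchanged. Unadjusted p was under 0.05 for 2 pairs, both in microglia (Gbp4 and Gbp7), and DESeq2 called 0. The microglial Gbp7 levels were 41.2 to 82.9 CPM in fl EAE and 14.5 and 22.1 CPM in fl naive (log2 fold change 1.21 ± 0.58, adjusted p = 0.763).

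Between NestinCre EAE and the lone NestinCre naive library, 0 of 42 pairs passed (3 at an unadjusted p under 0.05, DESeq2 0, background 0.0715%). The naive library was sequenced in run 3 and no EAE library was, so that this contrast runs through the run terms and through fl naive 3, and the lone library is assumed to vary like the others. Microglial Gbp5 was at 308 to 684 CPM in NestinCre EAE and at 7.14 CPM in the naive library (log2 fold change 5.88 ± 1.64, adjusted p = 0.149). With run left out of the model 7 members passed, all in microglia and with log2 fold changes of 2.84 to 6.92. Of the interaction of genotype and disease, 0 of 42 pairs passed (2 at an unadjusted p under 0.05, DESeq2 0, background 0.00477%), and without run in the model Gbp8 in microglia did (5.69, adjusted p = 0.0168). The genotype difference was thus not shown to depend on EAE in these libraries, in a design with 3 naive libraries.

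Lists of related genes were read beside the members in the comparison of NestinCre EAE with fl EAE. Of the other guanylate-binding proteins, Gbp2b, Gbp10 and Gbp11, none passed the filter in granule cells or microglia, and Gbp11 alone did in mature oligodendrocytes, where it was not called (log2 fold change 0.74 ± 0.29, adjusted p = 0.375). Over whole libraries Gbp2b was higher (4.32 ± 0.61, adjusted p = 0.00907), Gbp11 was not called (1.42 ± 0.34, 0.0675) and Gbp10 was under the filter. The immunity-related GTPases, another interferon-induced family that acts at the same vacuoles, were higher for 6 of 6 tested in granule cells (median log2 fold change 4.2), 4 of 6 in mature oligodendrocytes (3.74) and 7 of 7 in microglia (2.80). Other interferon-gamma targets were higher for 11 of 15, 12 of 13 and 11 of 15, and type I interferon targets for 9 of 13, 8 of 11 and 9 of 10. Of the receptor and signal chain of interferon-gamma, 4 of 12, 6 of 11 and 5 of 12 were higher. Inflammasome partners of guanylate-binding proteins were higher for 3 of 8, 0 of 4 and 2 of 8, and of the 10 autophagy genes 0 of 10 passed in each of the 3 classes, with a median log2 fold change of -0.02 in granule cells. Higher here means called by the edgeR test, no gene of these lists was called lower in these classes, and the median over all genes tested was -0.00105 in granule cells. Of all genes tested, 1.74% were called in granule cells, 1.67% in mature oligodendrocytes and 6.90% in microglia. A listed gene that passes the filter only through its NestinCre EAE libraries had to differ. These counts therefore describe the genes that passed and are no support.

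The genes most like each member were found by Pearson's r of log2(CPM + 1) over 153 sums per class and library and 13517 genes. The sums share libraries and classes, so r is a description. Gbp7 was most like Tap1 (0.888), the peptide transporter of antigen presentation, Gbp6 like Iigp1 (0.785), an immunity-related GTPase, and Gbp2 like Cd274 (0.841), which encodes PD-L1. Gbp5 was most like Slfn5 (0.881), Gbp8 like Sp100 (0.888), Gbp9 like Trim30a (0.824) and Gbp4 like Gbp5 (0.859).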

How the data were processed

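Nuclei of 11 mouse libraries were sequenced by the authors with 10x Genomics 3′ chemistry, and the deposited matrices hold counts of UMIs per gene and barcode, not normalized. By the study's methods, Cell Ranger aligned reads to GRCm39 with a GENCODE annotation (release not given in the sources used here) and counted introns. The matrix headers name version 7.0.0 for run 1 and 6.0.2 for runs 2 and 3.

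Nuclei needed at least 200 genes (run 1) or 500 genes (runs 2 and 3) and less than 5% mitochondrial UMIs. The highest doublet scores (0.8% per 1000 barcodes) and clusters with over 50% of such nuclei were removed. Harmony was run on 40 principal components of 3000 variable genes, leaving out the members and related lists. Leiden clustering (igraph 0.11.9, resolutions 2 and 4) gave clusters of at least 20 nuclei. These were named by at least 3 markers at 20 CPM and 2 times the median cluster. UMIs were summed per library and class. Classes with at least 10 nuclei in every library of a comparison entered the quasi-likelihood test of edgeR (version 4.0.16, R version 4.3.3, TMM factors, filterByExpr, sequencing run as a term) with Benjamini-Hochberg adjustment over all genes within a class and a threshold of 0.05. DESeq2 1.42.0 was an alternative. The genotype comparison used 8 EAE libraries, and those with naive mice used all 11. CPM is UMIs per 1000000 of the library's class. By the study's methods each EAE library came from its own mouse. The labels do not number the EAE libraries of run 2, which are called replicate 4 here. In the main fits p-values measure the spread between these libraries. With no filter on low counts that spread is estimated with the genes of few UMIs included, so those p-values are less certain. Scripts ran in Python 3.11.15 and were tested on simulated data. Exact binomial intervals are at 95%.

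All 8 members were named by rule, and for likeness the 3 nearest genes by Pearson's r were computed. Some matches and likeness values are not reported here. Members and lists were chosen with earlier results of these data known. Alternatives covered size factors, filters, doublets, immune UMIs, depth, run and single libraries.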

Additional observations from a re-analysis of the deposited data

Results flagged for a closer look

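In 54 groups of 4 libraries, 14 held a library far from the other 3 by Dixon's ratio, and 13 of these were fl EAE 3. The cutoff marks about 1 of 20 groups when groups are independent and values normally distributed. These groups share libraries, and the whole-library sums hold the UMIs of the classes too, so the 14 cannot be set against that rate. In granule cells of fl EAE 3, Gbp2 was at 1.96 CPM (others at most 0.310), Gbp4 at 0.357 CPM (others 0) and Gbp7 at 1.61 CPM (others at most 0.358). In its mature oligodendrocytes Gbp3 was at 6.11 CPM (others at most 0.568) and Gbp7 at 17.3 CPM (others at most 2.27), in its microglia Gbp2 was at 45.2 CPM (others at most 6.48), and in its excitatory neurons outside the cerebellar cortex Gbp7 was at 2.95 CPM (others at most 0.421). Over the whole library of fl EAE 3, Gbp2 was at 2.74, Gbp3 at 1.83, Gbp4 at 1.26, Gbp5 at 2.99, Gbp7 at 5.09 and Gbp8 at 0.863 CPM, against at most 0.422, 0.370, 0.149, 0.795, 1.00 and 0.348 CPM in the others. The remaining library was NestinCre EAE 4, with Gbp4 in microglia at 195.0 CPM against 285 to 293 CPM in the others.

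The edgeR test called the genotype difference in microglia smaller than that in granule cells for Gbp7 (-1.57 on the log2 scale) and Gbp9 (-3.96), and DESeq2 called neither. The Gbp7 call was lost in 5 of 14 alternatives and the Gbp9 call in 8 of 14. Gbp9 was at 0 in the granule cells of all 4 fl EAE libraries, so that its value is set by the prior count and is no measure of size. In nuclei that no class took, the 8 members together were at 7.80 CPM in the lowest NestinCre EAE library (replicate 4, others 13.4 to 22.3 CPM), above the 1.70 to 4.97 CPM of the naive libraries. In fl EAE 1 to 4 they were at 1.54, 2.23, 12.6 and 1.93 CPM.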

How the results depend on the processing

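Every difference between NestinCre EAE and fl EAE kept its direction under every alternative that gave a value. Members called by class were 18 of 19 pairs, 43 of 76 with no filter on low counts, and 14 to 22 with single libraries left out. The shares of all genes called under the alternatives, here and above, are not given, so these counts describe the members alone. Over whole libraries the count was 8, and 6 to 8 with single libraries left out. The comparisons with naive mice and the interaction gave 0 calls throughout those omissions. Against the lone NestinCre naive library, 1 member passed with no filter and 7 with no run in the model, and 1 passed in the interaction with no run in the model. The difference between a class and granule cells gave 2 calls, 0 by DESeq2, 1 with no filter, 0 with immune UMIs left out, and 0 to 2 with single libraries left out. Gbp9 in that comparison was lost by DESeq2, with no filter, with immune UMIs left out, and without NestinCre EAE 1, NestinCre EAE 4, fl EAE 2, fl EAE 3 or fl EAE 4 (adjusted p up to 0.231). The cause was not tested.

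With a replicate block, 14 of 19 pairs by class and 7 of 8 whole-library members were called, but the numbers did not pair the libraries. The correlations between same-numbered libraries of their deviations from the group means were -0.332, 0.653, 0.215 and -0.173, and 3 of 8 libraries were most like their own number. Under the block Gbp2, Gbp3, Gbp5 and Gbp6 in granule cells and Gbp2 over whole libraries missed the threshold (adjusted p of 0.117, 0.0692, 0.0576, 0.0574 and 0.0525).

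Without thinning, the shares of nuclei with a UMI were 0.533% and 7.34% in granule cells, 2.02% and 19.1% in mature oligodendrocytes, and 24.5% and 78.7% in microglia (fl EAE and NestinCre EAE). With doublets kept, the microglial Gbp8 level in NestinCre EAE was 190.0 CPM instead of 230 CPM, and 24 of 26 pairs were called by class. An alternative that left out nuclei with UMIs of a narrower immune marker list was chosen after seeing the data and gave 18 of 19. Without fl naive 2 neither comparison of EAE with naive mice could be fitted, and without fl naive 3 or NestinCre naive 2 neither that of NestinCre mice nor the interaction could.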
